A study of Mus musculus with 16 samples.

Results

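The 9 genes described here code for the receptors of insulin and insulin-like growth factor (Insr, Igf1r), the substrates that these receptors phosphorylate (Irs1, Irs2), an adaptor and a membrane protein that restrain the signal (Grb10, Pik3ip1), and the forkhead factors at its end (Foxo1, Foxo3, Foxo4). They were chosen by name, with earlier results of these data known, out of 35968 mouse genes whose transcripts were summed. All 9 were among the 18944 genes abundant enough to be tested. Polyadenylated RNA was sequenced from mouse embryonic stem cells (ESCs), pluripotent cells derived from the early embryo. There were 4 groups of 4 libraries, each library made from 800000 cells on day 2. They were Dgcr8 knockout (KO) cells paused by culture with an mTOR inhibitor (mTORi), KO cells in normal ESC culture, wild-type (WT) cells paused in the same way, and WT cells in normal culture. Dgcr8 is a subunit of the complex that cuts primary microRNA transcripts, and mTOR inhibition puts ESCs into a dormancy-like state called pausing. The labels name 1 KO line, KO24, and neither the inhibitor, its dose nor the part of Dgcr8 that was deleted.

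When insulin or an insulin-like growth factor binds its receptor, the receptor phosphorylates IRS proteins, which recruit PI3-kinase, and AKT is activated. AKT phosphorylates FoxO factors, which then leave the nucleus, so FoxO target genes are read when the pathway is quiet. The kinase complex mTORC1, downstream of AKT, feeds back by restraining IRS proteins, and GRB10 is one of its substrates.

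Dgcr8 RNA was higher, not lower, in the KO libraries. It averaged 180.8 ± 7.3 CPM in KO paused and 250.3 ± 4.1 CPM in KO normal cells, against 53.9 ± 2.4 CPM in WT paused and 47.3 ± 1.8 CPM in WT normal cells (SD, n = 4 each). CPM are counts scaled to the size of each library. Counts over the whole gene do not separate the deleted part from the rest, so they do not check the label. All 8 ESC markers examined, Pou5f1, Nanog and Sox2 among them, were above 1 TPM in each group, where TPM is the deposited level per length. Of 8 fibroblast markers, which would report feeder cells, 1 exceeded 1 TPM, and Col3a1, Postn, Lum and Dcn were at or near 0 in every group. The summed level of 6 endoderm markers was 7.84 to 10.1 TPM in KO paused and 3.61 to 5.29 TPM in KO normal libraries, against 13.6 to 20 TPM in WT paused and 11.6 to 18.1 TPM in WT normal libraries. In KO cells Dab2 averaged 6.90 TPM in paused and 2.05 TPM in normal culture, while Gata4, Gata6 and Sox17 did not rise. Summed trophoblast markers (6 genes) were 34.1 to 45.0 TPM in KO paused and 20.1 to 22.0 TPM in KO normal libraries, against 25.3 to 33.1 TPM in WT paused and 18.2 to 28.1 TPM in WT normal libraries. Krt8 and Krt18 held most of these sums, at 19.6 and 18.1 TPM in KO paused cells. Gata3 averaged 0.678 TPM in KO paused and 3.51 TPM in WT paused cells, and Cdx2, Elf5 and Hand1 were also lower in KO paused cells. The summed fibroblast markers were 21.7 to 24.0 TPM in KO paused and 27.9 to 31.4 TPM in KO normal libraries, against 11.3 to 12.4 TPM in WT paused and 9.78 to 13.6 TPM in WT normal libraries. Thy1, the 1 marker above 1 TPM, held most of these sums, at 22.7, 29.5, 11.2 and 10.6 TPM in the same order. Neuroectoderm markers (4 genes) were 107 to 117 TPM in KO paused and 115 to 144 TPM in KO normal libraries, against 100 to 116 TPM in WT paused and 89.5 to 116 TPM in WT normal libraries. Tubb3 held most of these sums. Pax6 averaged 0.884 and 0.915 TPM in KO paused and KO normal cells, against 6.91 and 7.07 TPM in WT cells. Sox1 and Nes were lower in KO cells in paused culture and higher in normal culture. The 8 ESC markers summed to 6990 to 7710 TPM in KO paused and 6870 to 7220 TPM in KO normal libraries. In WT libraries they summed to 8460 to 8810 TPM when paused and 6190 to 7250 TPM in normal culture. Single ESC markers differed between the groups in unlike ways. In the order KO paused, KO normal, WT paused and WT normal, Klf4 averaged 384.5, 202.8, 186.3 and 71.25 TPM. Dppa5a averaged 2524, 3241, 4310 and 3320 TPM in that order. The part of these markers in the results was not tested, and in such bulk samples fewer cells of a type and less RNA per cell cannot be told apart. Library totals lay between 88377380 and 116646028 estimated counts. The WT normal libraries formed 2 pairs: the median chi-square per gene was 9.27 to 13.0 between replicates 1 or 2 and replicates 3 or 4, but 2.43 and 2.07 within the pairs. The other groups paired less strongly. WT paused libraries had 2.02 and 1.28 within the same pairs of replicates, against 3.43 to 4.45 between them. KO normal libraries had 2.71 and 1.92, against 3.48 to 5.58. KO paused libraries paired as replicates 1 with 3 and 2 with 4, at 2.35 and 2.12 against 3.15 to 4.99. The part of these splits in the results was not tested. Values among replicates 1 and 2 or 3 and 4 are given where they change a call or move a value most.

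The promoters of the receptor substrates are shown first, because Irs1 and Irs2 had the largest upward pausing responses of the 9 genes and were the only ones of the 7 genes with a RefSeq promoter entry that held any of the motifs searched. The motifs, read on both strands, were the FoxO core GTAAACA, the insulin response core CAAAACA and the E-box CACGTG. They occur in 3.65%, 6.28% and 7.15% of the 32851 RefSeq promoters of the same length, and 0.408% hold both CAAAACA and CACGTG. Each sequence runs from 250 bases before to 50 after the annotated RefSeq start (GRCm38.p6), and capitals mark the motif letters.
Irs1 promoter, chr1:82291390-82291689, minus strand: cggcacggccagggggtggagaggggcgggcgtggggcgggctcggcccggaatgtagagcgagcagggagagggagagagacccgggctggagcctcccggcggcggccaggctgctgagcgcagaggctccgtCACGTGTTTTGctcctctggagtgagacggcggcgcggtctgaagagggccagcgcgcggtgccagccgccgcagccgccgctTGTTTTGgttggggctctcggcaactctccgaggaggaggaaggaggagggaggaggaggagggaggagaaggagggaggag
Irs2 promoter, chr8:11008880-11009179, minus strand: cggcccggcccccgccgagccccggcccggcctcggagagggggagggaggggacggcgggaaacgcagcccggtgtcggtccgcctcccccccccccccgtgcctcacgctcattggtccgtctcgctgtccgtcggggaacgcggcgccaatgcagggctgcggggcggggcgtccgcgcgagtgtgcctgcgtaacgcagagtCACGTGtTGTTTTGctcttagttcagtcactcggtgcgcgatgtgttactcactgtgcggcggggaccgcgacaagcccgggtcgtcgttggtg
In both genes an E-box and an insulin response core, read as TGTTTTG, overlap or lie close together. In Irs1 the E-box begins at position -115 from the start and overlaps the core at -111, and another core lies at -32. In Irs2 the E-box begins at -44 and the core at -37, with 1 base between them. Neither window holds GTAAACA. No match of any of the 3 motifs was found in the windows of Igf1r, Grb10, Pik3ip1, Foxo1 and Foxo3, and no entry was used for Insr and Foxo4. A match of letters does not show that a factor binds there.

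Seed matches of microRNAs, the RNAs whose processing needs Dgcr8, were looked up in the longest annotated 3′ UTR of each gene for 11 microRNAs. The seed is bases 2 to 8 of the mature microRNA, given in capitals with sequences from RefSeq. Over the 9 members, let-7a, miR-182, miR-7a and miR-19b had 4 sites each. The first is shown because its sites lie in both receptors and Irs2, and miR-182 because its sites lie in Foxo1, Foxo3 and Igf1r.
let-7a-5p: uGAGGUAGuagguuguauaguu
miR-182-5p: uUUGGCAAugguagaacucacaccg
The let-7a site is present in 9.02% and the miR-182 site in 10.9% of 21039 mouse 3′ UTRs. Followed by an A, which makes 8 letters, they are present in 3.06% and 4.24%. Sites are given on GRCm38 with 9 bases on either side, and capitals mark the complement of the seed.
Irs2, let-7a, chr8:10986520-10986544, minus strand: accacagtcCTACCTCagttcaggg
Insr, let-7a, chr8:3153190-3153214, minus strand: cagtacagtCTACCTCagtgtctta
Igf1r, let-7a, chr7:68229116-68229140, plus strand: aacatttatCTACCTCactcttgtt
Foxo3, miR-182, chr10:42186243-42186267, minus strand: gaaaaccctTTGCCAAatctgctct
Foxo3, miR-182, chr10:42185424-42185448, minus strand: ctctgcccgTTGCCAAatgccacga
Irs2, Insr and Igf1r were thus the members with a let-7a site, and in all 3 the site was followed by the A that extends it to 8 letters. Igf1r had a second let-7a site without that letter. Irs2 also had 2 miR-7a sites, 1 of them of 8 letters. Foxo3 had 2 such 8-letter miR-182 sites, and Foxo1 and Igf1r had 1 each. The site of miR-294-3p, the abundant ESC microRNA, was found once in Igf1r and at 2 places in Foxo1, and is present in 14.7% of all 3′ UTRs. Grb10 had 5 sites, for miR-7a, miR-19b, miR-26a and miR-21a, at 1.69 per kb the highest density of the 9 genes. Pik3ip1, whose 3′ UTR is 1244 bases long, had no site of the 11 microRNAs, whereas the 6240 bases of Foxo1 held 7. A longer 3′ UTR has more room for matches, and 98.9% of genes have a shorter one than the 7267 bases of Igf1r. MicroRNA levels were not analysed here.

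Pausing moved nearly all 9 genes in both genotypes, mostly upward. In KO cells 6 members rose, 2 fell and 1 did not pass the test, where 67.2% of all tested genes passed it (34.4% higher, 32.8% lower). In WT cells 7 rose and 2 fell, where 60.7% of all tested genes passed (33.3% higher, 27.5% lower). The CPM of the 4 paused and 4 normal libraries did not overlap for 8 members in KO cells, against 64% of all tested genes, and for 9 in WT cells, against 54%. Most tested genes were thus called, and a count of members called says little about them in particular. The members' median log2 change was 0.54 in KO cells and 1.12 in WT cells, beside 0.02 and 0.04 over all genes tested. Because the members were chosen with earlier results of these data known, these medians are descriptive and do not test the family as a whole. Calls are at an adjusted p under 0.05 in edgeR's quasi-likelihood test with Benjamini-Hochberg adjustment over all tested genes. The labels do not say that replicates are separate cultures, so p-values measure the spread between these libraries, which may be technical.

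**Figure D1:**
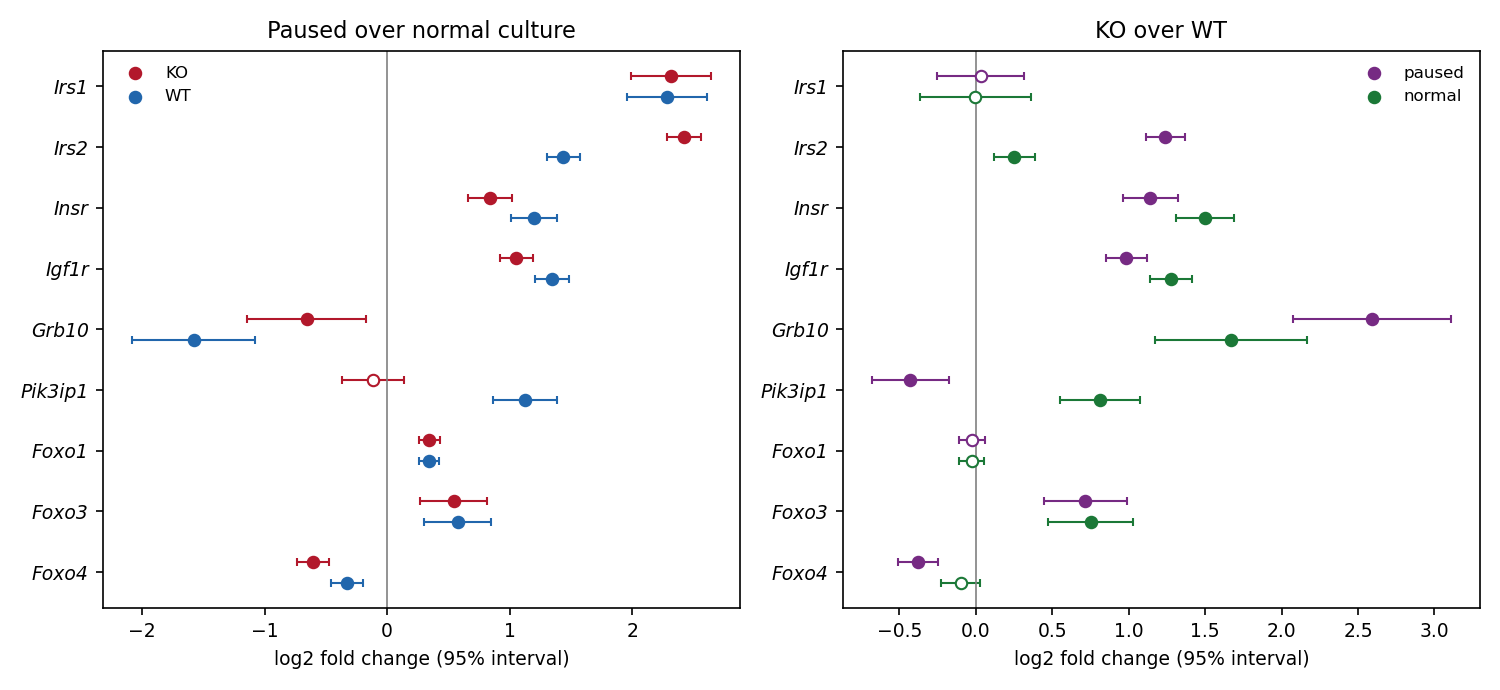
Log2 fold change of each member with its 95% interval, for paused over normal culture in KO and WT cells (left) and for KO over WT in paused and normal culture (right); filled points passed the test. Irs1 and Irs2 lie farthest right among the pausing responses, at 2.32 and 2.42 in KO cells, and Pik3ip1 is the member whose KO over WT change is positive in normal culture (0.81) and negative in paused culture (-0.43).

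Insr, the insulin receptor (chromosome 8, 3122061 to 3279617, minus strand), rose with pausing and was higher in KO cells. Its 4 libraries had 19.8, 21.0, 19.1 and 21.2 CPM in KO paused cells, and 12.0, 12.3, 10.5 and 10.6 CPM in KO normal cells. WT paused cells had 8.51, 9.28, 9.16 and 9.79 CPM, and WT normal cells 4.79, 4.13, 3.66 and 3.40 CPM. In CPM, KO cells in normal culture were thus above WT cells in paused culture, and no 2 groups overlapped. In TPM these 2 groups overlapped, at 2.36 to 2.72 in KO normal and 2.33 to 3.02 in WT paused libraries. The pausing change was 0.84 ± 0.08 log2 in KO cells (SE; adjusted p = 5.98e-08, edgeR) and 1.20 ± 0.09 in WT cells (adjusted p = 1.49e-09, edgeR). KO exceeded WT by 1.14 ± 0.09 log2 in paused and 1.50 ± 0.09 log2 in normal culture, or 2.21-fold and 2.83-fold. The difference of the pausing responses, KO minus WT, was -0.36 ± 0.12 (adjusted p = 0.0251, edgeR). It lost its call among replicates 1 and 2 alone (-0.25, adjusted p = 0.101, edgeR). The same held without KO normal replicate 2, KO paused replicate 1 or 3, WT normal replicate 2 or 3, or WT paused replicate 4, with values of -0.28 to -0.34 and adjusted p of 0.0505 to 0.0883 (edgeR).

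Igf1r, the receptor of insulin-like growth factors (chromosome 7, 67952827 to 68233668, plus strand), also rose with pausing and was higher in KO cells. It had 93.6, 97.2, 84.3 and 92.8 CPM in KO paused cells, and 43.1, 45.6, 44.7 and 43.8 CPM in KO normal cells. In WT cells it was 49.3, 52.2, 42.3 and 41.9 CPM when paused and 19.5, 17.4, 18.9 and 17.4 CPM in normal culture. KO normal and WT paused cells overlapped, KO paused cells stood above them and WT normal cells below. Pausing raised it 2.07-fold in KO cells and 2.54-fold in WT cells (log2 1.05 ± 0.06 and 1.34 ± 0.07, SE; adjusted p = 8.22e-11 and 6.97e-12, edgeR). KO cells exceeded WT cells 1.98-fold in paused and 2.42-fold in normal culture. Between the genotypes the pausing responses differed by -0.29 ± 0.09 (adjusted p = 0.0168, edgeR). This difference was -0.15 with counts corrected for transcript length (adjusted p = 0.47, edgeR) and -0.23 without WT normal replicate 2 (adjusted p = 0.0734, edgeR).

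Per length, Igf1r was the more abundant receptor in every group. Its share of the summed TPM of both receptors was 78.0 ± 1.9% in KO paused, 72.5 ± 1.7% in KO normal, 78.9 ± 4.0% in WT paused and 76.9 ± 2.9% in WT normal cells (SD, n = 4 each). The coding transcript Igf1r-201 held 60.6% of the Igf1r TPM in KO paused and 77.6% in KO normal cells, against 58.3% in WT paused and 66.3% in WT normal cells. Most of the rest was assigned to Igf1r-206, a short retained-intron transcript, at 27.4%, 16.8%, 31.1% and 27.3% in the same order of groups. Such transcripts are annotated as non-coding, and kallisto estimates how reads are divided between overlapping transcripts, so these shares are given without a test.

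Irs1, the substrate best known from muscle and fat (chromosome 1, 82233101 to 82291416, minus strand), was scarce and rose strongly with pausing in both genotypes. It had 2.32, 2.40, 1.86 and 2.29 CPM in KO paused cells, and 0.373, 0.453, 0.548 and 0.397 CPM in KO normal cells. WT paused cells had 2.16, 2.33, 2.18 and 2.00 CPM, and WT normal cells 0.418, 0.559, 0.471 and 0.320 CPM. Paused and normal libraries were far apart, while KO and WT libraries overlapped in either culture. Pausing raised Irs1 4.98-fold in KO cells (log2 2.32 ± 0.15, SE; adjusted p = 2.44e-10, edgeR) and 4.87-fold in WT cells (2.28 ± 0.16, adjusted p = 4.06e-10, edgeR). Their difference was 0.03 with a 95% interval of -0.43 to 0.50. These values rest on 191 to 297 counts in paused and 27 to 57 counts in normal libraries. Gm9747, a gene model antisense to Irs1, had no counts in any library.

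Irs2, the other widely expressed substrate (chromosome 8, 10984681 to 11008458, minus strand), had the largest pausing response in KO cells and the largest positive difference between the genotypes' responses. It had 71.2, 86.6, 72.6 and 76.7 CPM in KO paused cells, and 13.5, 13.7, 16.04 and 14.0 CPM in KO normal cells. In WT cells it was 31.7, 33.3, 32.8 and 32.2 CPM when paused and 12.3, 11.2, 12.3 and 12.4 CPM in normal culture. The 4 groups did not overlap, and the KO and WT normal libraries were close while the paused ones were far apart. Pausing raised Irs2 5.36-fold in KO cells (log2 2.42 ± 0.06, SE; adjusted p = 4.26e-15, edgeR) and 2.70-fold in WT cells (1.44 ± 0.06, adjusted p = 1.89e-12, edgeR). KO minus WT, the responses differed by 0.99 ± 0.09 (adjusted p = 1.38e-07, edgeR), a difference that passed the test under every alternative tried. KO exceeded WT 2.36-fold in paused culture (log2 1.24 ± 0.06, adjusted p = 4.87e-12, edgeR) and 1.19-fold in normal culture (0.25 ± 0.06, adjusted p = 0.00206, edgeR). Among replicates 1 and 2 alone the normal-culture difference was 0.215 (adjusted p = 0.0667, edgeR).

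Per length, Irs2 was far more abundant than Irs1. Its share of the summed Irs1 and Irs2 TPM was 98.1% in KO paused, 97.9% in KO normal, 95.6% in WT paused and 97.5% in WT normal cells. Irs2 averaged 19.3 ± 2.1 TPM in KO paused cells and 3.13 ± 0.38 TPM in KO normal cells, against 7.86 ± 0.25 TPM in WT paused and 2.42 ± 0.18 TPM in WT normal cells (SD, n = 4 each). Irs1 stayed below 1 TPM throughout, with 0.381 TPM in KO paused and 0.359 TPM in WT paused cells as its highest means. Irs4, a further substrate outside the 9 genes that was chosen after its values were seen and is not in these shares, averaged 0.123 TPM in KO paused and 0.0460 TPM in KO normal cells, against 0.506 TPM in WT paused and 0.187 TPM in WT normal cells, so that in WT cells its mean was above that of Irs1.

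**Figure D2:**
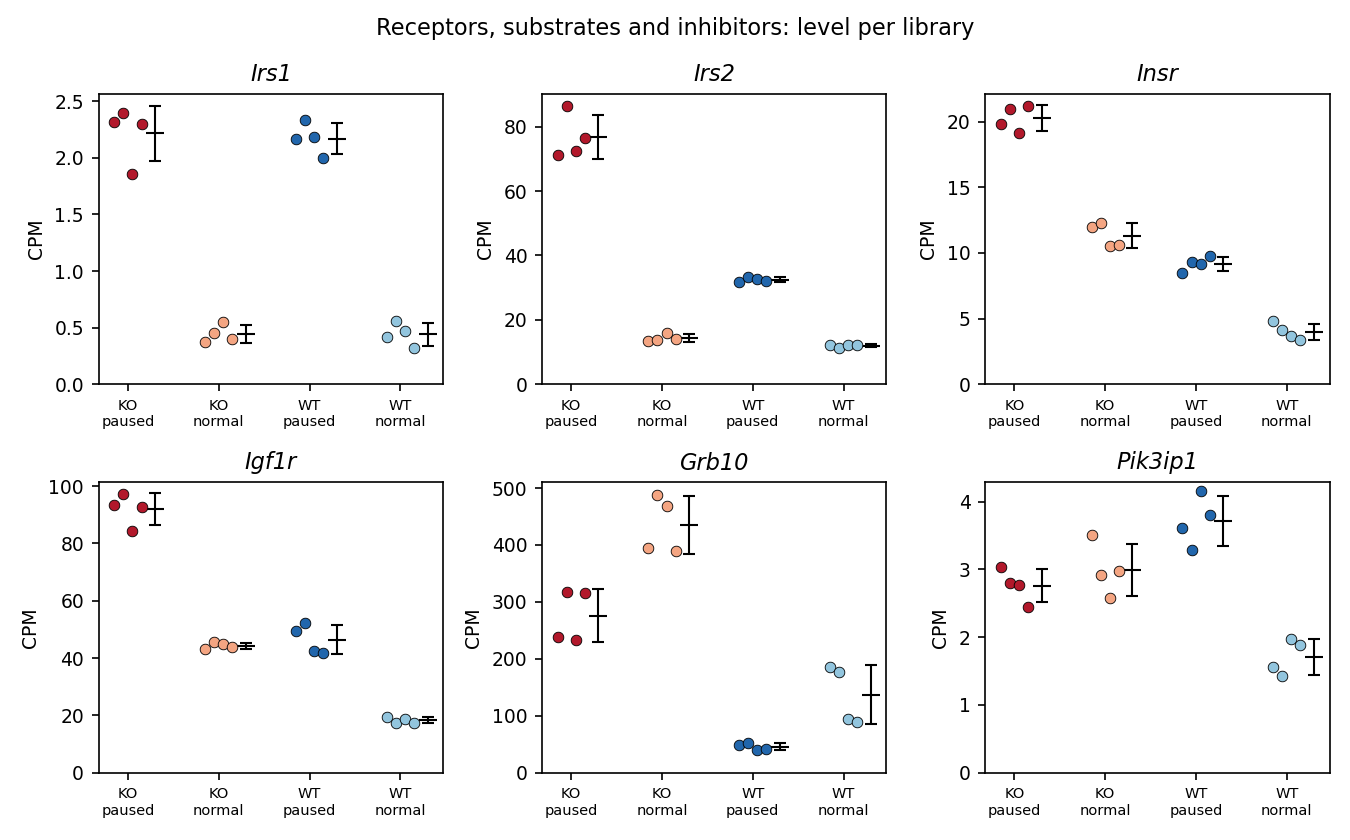
CPM of the receptors, substrates and inhibitors in each of the 16 libraries, with the mean and SD of each group beside the points; every axis starts at 0. Irs2 in KO paused cells (71.2 to 86.6 CPM) stands above every other group, and the WT normal libraries of Grb10 fall into 2 pairs.

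Grb10, an adaptor that binds the activated receptors and dampens their signal, and an imprinted gene (chromosome 11, 11930508 to 12038683, minus strand), fell with pausing and was much higher in KO cells. It had 238.2, 317.3, 233.2 and 315.1 CPM in KO paused cells, and 394.8, 488.2, 467.9 and 388.9 CPM in KO normal cells. WT paused cells had 49.2, 52.3, 40.3 and 41.4 CPM, and WT normal cells 185.5, 177.3, 94.7 and 89.6 CPM. No groups overlapped, and WT normal replicates 1 and 2 were far above replicates 3 and 4, along the split of the WT normal libraries given above. The KO over WT difference was the largest of the 9 genes, 6.03-fold in paused culture (log2 2.59 ± 0.24, SE; adjusted p = 3.82e-07, edgeR) and 3.18-fold in normal culture (1.67 ± 0.23, adjusted p = 1.9e-05, edgeR). Pausing changed Grb10 by -0.66 ± 0.22 log2 in KO cells (adjusted p = 0.0192, edgeR) and by -1.58 ± 0.23 in WT cells (adjusted p = 4.13e-05, edgeR). The KO change lost its call without KO normal replicate 2, or KO paused replicate 1 or 3 (adjusted p of 0.0507, 0.0546 and 0.0553, edgeR). The difference of the responses, 0.92 ± 0.32 (adjusted p = 0.0328, edgeR), was 0.54 among replicates 3 and 4 alone (adjusted p = 0.188, edgeR). It also lost its call without KO normal replicate 1 or 4, KO paused replicate 2 or 4, WT normal replicate 1 or 2, or WT paused replicate 3 or 4, with values of 0.74 to 0.88 and adjusted p of 0.0593 to 0.0734 (edgeR). With no filter on low counts it was 0.91 (adjusted p = 0.062, edgeR) and with counts corrected for transcript length 0.82 (adjusted p = 0.0508, edgeR). The transcript Grb10-201 carried 96.0% of the Grb10 TPM in KO paused and 97.7% in KO normal cells, against 88.2% in WT paused and 94.1% in WT normal cells.

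Pik3ip1 codes for a membrane protein that binds the catalytic subunit of PI3-kinase and holds it down (chromosome 11, 3330401 to 3342971, plus strand). It rose with pausing in WT cells and did not pass the test in KO cells, and the test of the difference between these responses was passed. It had 3.04, 2.79, 2.77 and 2.45 CPM in KO paused cells, and 3.51, 2.91, 2.57 and 2.97 CPM in KO normal cells. In WT cells it was 3.62, 3.28, 4.15 and 3.81 CPM when paused and 1.56, 1.42, 1.97 and 1.88 CPM in normal culture. The 2 KO groups overlapped each other, all KO libraries were above the WT normal ones, and 1 KO normal library (3.51 CPM) lay within the range of the WT paused ones. The pausing change was -0.11 ± 0.12 log2 in KO cells (SE; 95% interval -0.37 to 0.14; adjusted p = 0.417, edgeR) and 1.12 ± 0.12 in WT cells (adjusted p = 2.49e-07, edgeR). Their difference of -1.24 ± 0.17 (adjusted p = 1.81e-05, edgeR) passed the test under every alternative tried. KO was lower than WT in paused culture, with a log2 change of -0.43 ± 0.12 (adjusted p = 0.0041, edgeR), and higher in normal culture, with 0.81 ± 0.12 (adjusted p = 1.31e-05, edgeR). The normal-culture value was 0.46 with counts corrected for transcript length and 0.52 among replicates 3 and 4, and the paused-culture value was -0.24 among replicates 1 and 2 (adjusted p = 0.133, edgeR). The gene had 145 to 423 counts a library, spread over 10 transcripts, of which Pik3ip1-201 held 52.8% of the TPM in KO paused, 55.1% in KO normal, 54.5% in WT paused and 38.7% in WT normal cells.

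The FoxO factors did not move together. Foxo1, best known for its control of glucose output in the liver (chromosome 3, 52268336 to 52353221, plus strand), rose slightly with pausing in both genotypes. It had 61.2, 59.7, 58.7 and 58.1 CPM in KO paused cells, and 46.8, 48.6, 47.9 and 43.7 CPM in KO normal cells. WT paused cells had 58.5, 60.9, 60.7 and 61.5 CPM, and WT normal cells 49.8, 49.1, 45.7 and 46.1 CPM. Paused libraries were above all normal ones, and the genotypes overlapped. The change was 0.34 ± 0.04 log2 in KO cells and 0.34 ± 0.04 in WT cells (SE; adjusted p = 3.93e-07 and 5.65e-07, edgeR), with a difference of 0.00 and a 95% interval of -0.11 to 0.12. KO over WT was -0.02 in paused and -0.03 in normal culture, with 95% intervals of -0.11 to 0.06 in both.

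Foxo3, known for its part in the quiescence of tissue stem cells (chromosome 10, 42181841 to 42276755, minus strand), rose with pausing and was higher in KO cells. It had 211.6, 218.3, 200.5 and 204.2 CPM in KO paused cells, and 145.6, 159.2, 137.1 and 131.3 CPM in KO normal cells. In WT cells it was 124.4, 137.9, 120.7 and 125.0 CPM when paused and 106.3, 99.8, 66.5 and 68.1 CPM in normal culture. KO paused cells were highest and WT normal cells lowest, again in 2 pairs, and KO normal and WT paused cells overlapped. Pausing changed Foxo3 by 0.54 ± 0.13 log2 in KO cells (SE; adjusted p = 0.00161, edgeR) and by 0.58 ± 0.13 in WT cells (adjusted p = 0.00119, edgeR). KO exceeded WT by 0.72 ± 0.13 in paused and 0.75 ± 0.13 in normal culture (adjusted p = 0.000165 and 0.000105, edgeR). The WT pausing change was 0.35 among replicates 1 and 2. The difference of the responses, -0.03 in all libraries (adjusted p = 0.903, edgeR), was -0.265 among replicates 3 and 4 (adjusted p = 0.000757, edgeR) and 0.145 among replicates 1 and 2 (adjusted p = 0.177, edgeR).

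Foxo4, an X-linked factor of the same family (chromosome X, 101254528 to 101260873, plus strand), fell with pausing. It had 47.0, 44.5, 46.0 and 43.5 CPM in KO paused cells, and 71.4, 66.2, 67.9 and 69.6 CPM in KO normal cells. WT paused cells had 58.6, 60.4, 58.7 and 57.8 CPM, and WT normal cells 64.9, 66.7, 81.3 and 82.0 CPM. KO paused cells were lowest, and the KO and WT normal libraries overlapped. The change was -0.60 ± 0.06 log2 in KO cells (SE; adjusted p = 8.67e-08, edgeR) and -0.33 ± 0.06 in WT cells (adjusted p = 0.000162, edgeR), the WT value being -0.15 among replicates 1 and 2 and -0.50 among replicates 3 and 4. Their difference of -0.28 ± 0.09 (adjusted p = 0.0163, edgeR) lost its call among replicates 3 and 4 alone (-0.12, adjusted p = 0.0937, edgeR) and without WT normal replicate 2 (-0.19, adjusted p = 0.0846, edgeR). KO was lower than WT in paused culture, with a log2 change of -0.38 ± 0.06 (adjusted p = 3.07e-05, edgeR). In normal culture the change was -0.10 ± 0.06 (adjusted p = 0.159, edgeR), but -0.25 among replicates 3 and 4 (adjusted p = 3.05e-05, edgeR), and it also passed the test without WT normal replicate 1 (-0.16, adjusted p = 0.021, edgeR) or 2 (-0.16, adjusted p = 0.0332, edgeR).

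Per length, the make-up of the FoxO pool differed between the groups. Foxo3 held 60.1 ± 0.8% of the summed FoxO TPM in KO paused and 43.8 ± 2.1% in KO normal cells, against 44.3 ± 1.0% in WT paused and 32.0 ± 6.7% in WT normal cells (SD, n = 4 each). Foxo4 held 27.9% in KO paused, 45.8% in KO normal, 41.6% in WT paused and 55.9% in WT normal cells, so the leading factor was Foxo3 in KO paused cells and Foxo4 in WT normal cells. Foxo1 kept the smallest share, 10.4 to 14.1% by group. The summed level was 89.6 ± 4.4 TPM in KO paused and 70.7 ± 2.5 TPM in KO normal cells, against 74.8 ± 4.1 TPM in WT paused and 57.5 ± 3.0 TPM in WT normal cells. On the TPM scale the Foxo4 levels of WT paused (31.1 ± 1.3) and WT normal cells (32.1 ± 3.6) overlapped, although their CPM did not. The scales also differed outside the FoxO genes. Pou5f1 averaged 1230 CPM in KO paused and 1268 CPM in KO normal cells, but 1630 and 1469 TPM. In WT paused and WT normal cells it averaged 1469 and 1609 CPM, but 1879 and 1721 TPM. The part of this in the summed FoxO level was not tested. Annotated antisense models overlap Irs2, Pik3ip1 and Foxo1 and were not analysed here, and without a stated strand setting their reads and those of the member cannot be told apart.

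**Figure D3:**
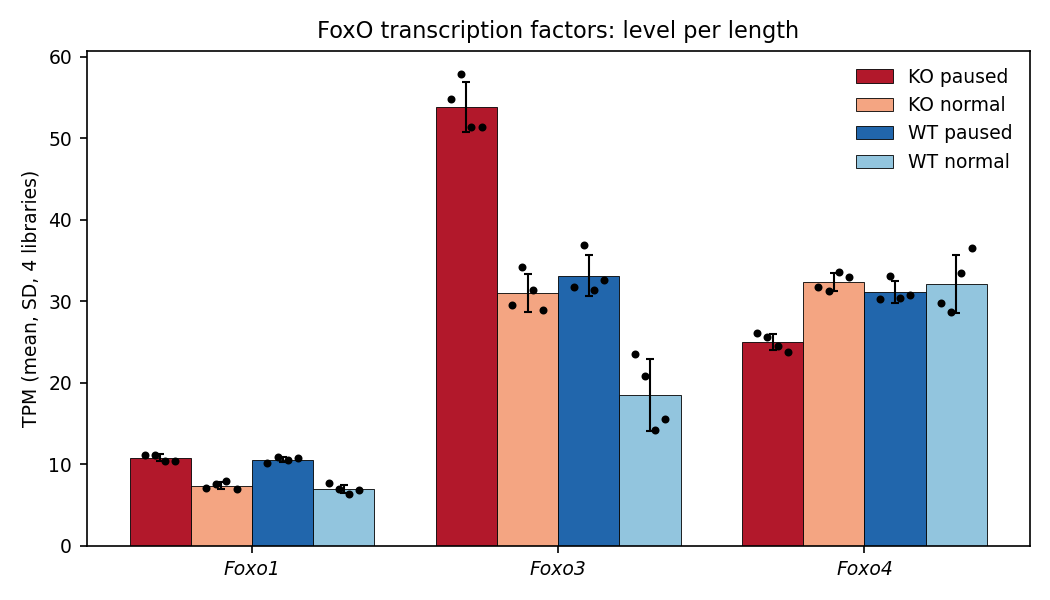
TPM of Foxo1, Foxo3 and Foxo4 by group; bars are means of 4 libraries, error bars the SD and dots the libraries. Foxo3 is highest in KO paused cells (53.9 TPM) and Foxo4 lowest there (25.0 TPM).

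Set side by side, the genotype comparisons had 7 members called in paused culture, 5 higher and 2 lower in KO, where 65.4% of all tested genes were called (30.8% higher, 34.5% lower). In normal culture 6 were called, all higher in KO, where 68.2% were called (34.1% higher, 34.1% lower). KO and WT libraries did not overlap for 7 members in paused culture, against 63.4% of all tested genes, and for 6 in normal culture, against 60.5%. The difference of the pausing responses was called for 6 members, where 41.9% were called (17.4% higher, 24.5% lower), with Irs2 and Grb10 positive and Insr, Igf1r, Pik3ip1 and Foxo4 negative. That count was 2 without WT normal replicate 2. The pausing and genotype comparisons share groups, so their values are not independent of one another.

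Across the 16 libraries, the protein-coding genes most like Irs2 by Pearson's r of log2 CPM, of 9133 compared, were Pomgnt2 (0.993), Tpp1 (0.992) and Krcc1 (0.990). For Pik3ip1 they were Ap2a1 (0.971), Igsf9 (0.970) and Optn (0.963). The first gene was Brd8 for Irs1 (0.986), Wdfy1 for Insr (0.995) and Gars for Grb10 (0.994). It was Ift172 for Foxo1 (0.978), Creb1 for Foxo3 (0.989) and Nol10 for Foxo4 (0.988). The libraries of a group share their treatment and genotype, so such values describe a shared order of 4 groups more than 16 separate points.

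Of the other genes of insulin and IGF signalling, 45 of the 48 listed were tested, and Ins1, Ins2 and Igfbp1 were not. Of each list, the genes named are the called ones with the largest changes among those averaging 3 or more in log2 CPM. In KO cells 14 rose and 21 fell with pausing, so that 77.8% were called beside 67.2% of all tested genes. In WT cells 18 rose and 14 fell, or 71.1% beside 60.7%. The median log2 change was -0.12 in KO and 0.07 in WT cells, beside 0.02 and 0.04 over all genes tested. In KO cells Pik3cd, a catalytic subunit of PI3-kinase (-1.35), Akt1, the kinase at the centre of the pathway (-1.14), and Ide, an insulin-degrading protease (-0.81), fell, and Sgk3, a kinase related to AKT (0.81), rose. In WT cells Pik3r1, a regulatory subunit of PI3-kinase (1.00), Igfbp4, which binds insulin-like growth factors (0.90), and the AKT phosphatases Phlpp2 (0.82) and Phlpp1 (0.72) rose. Most of these genes were called in the same direction in the other genotype. In WT cells these were Akt1 (-0.60), Ide (-0.37) and Sgk3 (0.30), and in KO cells Pik3r1 (0.57), Phlpp2 (0.54) and Phlpp1 (0.42). Pik3cd did not pass the test in WT cells (0.15), and Igfbp4 fell in KO cells (-0.36). Unlike Pik3r1, the other regulatory subunits listed fell with pausing. Pik3r2 changed by -0.35 in KO and -0.14 in WT cells, and Pik3r3 by -1.18 and -0.67. The responses differed for 23 genes (51.1%, beside 41.9% of all tested genes), 19 of them negative in KO minus WT, led by Pik3cd (-1.51), Igfbp4 (-1.26), Grb7 (-0.67) and Sgk1 (-0.67). KO over WT, 15 were higher and 18 lower in paused culture (73.3% called, beside 65.4%), and 25 higher and 12 lower in normal culture (82.2%, beside 68.2%). The leading ones were Igfbp2 (1.22), Phlpp2 (0.95), Inppl1 (0.76) and Pik3r1 (-0.76) in paused culture, and Igfbp4 (2.01), Phlpp2 (1.23), Grb7 (1.09) and Igfbp2 (1.01) in normal culture.

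All 16 listed partners and regulators of FoxO factors were tested, and the list also counts the FoxO factor Foxo6. Foxo6 rose with pausing in WT cells (0.56) and did not pass the test in KO cells (0.15). In KO cells 3 rose and 12 fell with pausing, with a median of -0.39, where 34.4% of all tested genes rose and 32.8% fell. In WT cells 5 rose and 10 fell, with a median of -0.28, where 33.3% rose and 27.5% fell. The list holds 7 genes for 14-3-3 proteins, which hold phosphorylated FoxO in the cytoplasm. In KO cells all 7 fell, among them Ywhaz (-0.87) and Ywhaq (-0.73). In WT cells 5 fell, Ywhab (-0.70) among them, Ywhah rose (0.14) and Ywhag did not pass the test (-0.04). Skp2, part of a ubiquitin ligase, fell in KO (-0.79) and in WT cells (-0.66), and Prmt1, an arginine methyltransferase, fell in KO cells (-0.71). The deacetylase Sirt1 (0.85) and the acetyltransferase Crebbp (0.57) rose in WT cells. From normal to paused culture, mean CPM also went up in KO cells, from 110.5 to 130.8 for Sirt1 and from 47.7 to 69.6 for Crebbp. For Prmt1 it also went down in WT cells, from 518.5 to 391.6. The responses differed for 7 genes, a share of 43.8% that is near the 41.9% of all tested genes. All 7 were negative in KO minus WT, led by Sirt1 (-0.61), Ywhaq (-0.47), Ywhaz (-0.36) and Ywhah (-0.33). KO over WT, 2 were higher and 10 lower in paused culture (75% called, beside 65.4%), with Sirt1 (-0.86), Ywhaq (-0.57), Ywhah (-0.42) and Crebbp (0.42) leading. In normal culture 6 were higher and 4 lower (62.5%, beside 68.2%), led by Crebbp (0.45), Sfn (0.35), Sirt1 (-0.25) and Ywhaz (0.16).

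Of 30 genes known as FoxO targets in other tissues, 28 were tested, and G6pc and Ppargc1a were not. In KO cells 13 rose and 7 fell with pausing, with a median of 0.12, and 71.4% were called beside 67.2% of all tested genes. In WT cells 15 rose and 4 fell, with a median of 0.27, and 67.9% were called beside 60.7%. Pink1, a mitophagy kinase, rose in KO (1.44) and WT cells (1.29), as did Cdkn1b, a cell-cycle inhibitor (0.90 and 1.20). In KO cells Bnip3, a mitophagy receptor (-1.35), and Bcl2l11, a pro-apoptotic BCL-2 relative (-0.91), fell, and in WT cells Ccng2, a cyclin of resting cells (1.57), and Txnip, which limits glucose uptake (1.25), rose. From normal to paused culture, mean CPM also went up in KO cells, from 8.24 to 12.87 for Ccng2 and from 202.9 to 376.4 for Txnip. In WT cells it went from 40.8 to 30.6 for Bnip3 and from 28.9 to 37.8 for Bcl2l11. The responses differed for 12 genes (42.9%, near the 41.9% of all tested genes), 10 of them negative in KO minus WT, led by Bcl2l11 (-1.30), Trim63 (-1.15), Bnip3 (-0.93) and Ccng2 (-0.93). KO over WT, 13 were higher and 6 lower in paused culture (67.9% called, beside 65.4%), with Bnip3 (-1.56), Cdkn1b (1.08), Gabarapl1 (1.04) and Bcl2l11 (-0.95) leading. In normal culture 15 were higher and 8 lower (82.1%, beside 68.2%), led by Cdkn1b (1.39), Trim63 (1.34), Gabarapl1 (1.25) and Sesn1 (1.04). Changes of target RNA do not measure where FoxO proteins are in the cell, and the proteins were not measured in these libraries.

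**Figure D4:**
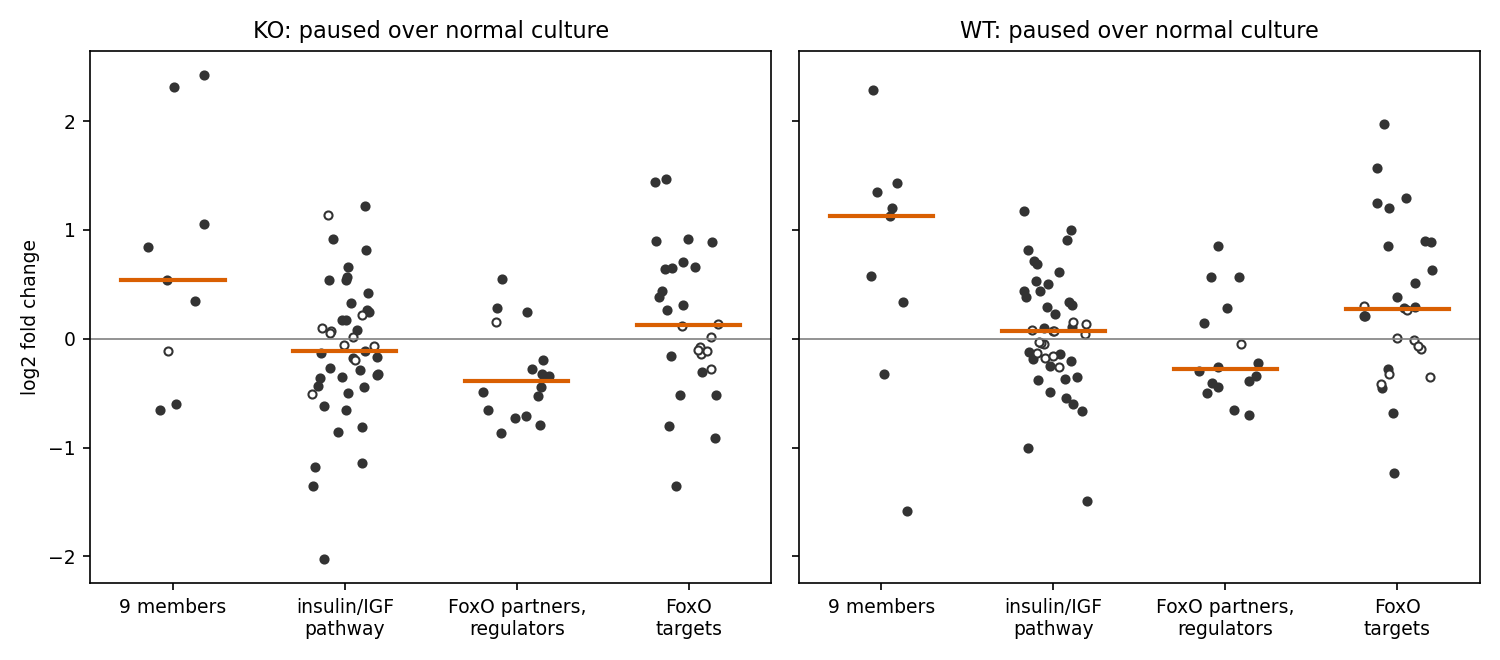
Log2 change with pausing of the 9 members and of the 3 gene lists, in KO cells (left) and WT cells (right); each point is a gene, filled where it passed the test, and orange lines are medians. The members' median lies at 0.54 in KO and 1.12 in WT cells, and that of the FoxO partners below 0 in both (-0.39 and -0.28). Members and lists were chosen with earlier results known, so the medians are descriptive.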

How the data were processed

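The authors deposited kallisto tables of estimated counts and TPM per transcript for each of the 16 libraries, built on GRCm38 per the submitters' processing notes. The kallisto version and strand setting are not given in the sources used here. Estimated counts of 116728 of 118489 transcripts were summed by gene with GENCODE M21 and rounded to whole numbers. The unmatched transcripts held 0.656 to 0.712% of the counts. The deposited TPM were summed likewise for shares and levels per length. Genes passing edgeR's expression filter (minimum count 10) were tested with edgeR 4.0.16 (R 4.3.3) in a robust quasi-likelihood fit with TMM factors, 1 mean per group over all libraries, and Benjamini-Hochberg adjustment over all tested genes. The script was tested on simulated data. DESeq2 1.42.0 and other settings were alternatives. From each gene list, up to 4 called genes per comparison averaging 3 or more in log2 CPM were named, by size of change. Members and lists were chosen with earlier results of these data known. Shared replicate numbers were not found to pair libraries throughout. The gene most like Igf1r in pattern is not reported here.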

Additional observations from a re-analysis of the deposited data

Results flagged for a closer look

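For 6 members the pausing response differed between KO and WT cells by the test of the difference itself. KO minus WT, on the log2 scale, it was 0.99 for Irs2, -0.36 for Insr, -0.29 for Igf1r, 0.92 for Grb10, -1.24 for Pik3ip1 and -0.28 for Foxo4. Those of Irs2 and Pik3ip1 passed under all alternatives tried. WT normal replicate 2 stood apart from its group in Irs2, at 11.2 CPM with the other 3 libraries at 12.3 to 12.4. Of the 36 groups checked in this way, chance marks about 1 in 20.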

How the results depend on the processing

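Of 1071 alternative values of the members' changes, 1008 kept their direction and their side of the threshold, 27 lost the call and 4 gained it; the cause was not tested. All 32 reversals were of values that did not pass the test. In the difference of the pausing responses, Irs1 was -0.251 among replicates 3 and 4, Foxo3 was 0.145 among replicates 1 and 2, and Foxo1 was -0.01 without a filter on low counts, -0.018 with length-scaled counts and -0.052 among replicates 3 and 4. KO over WT in normal culture, Irs1 was 0.021 without the filter, 0.001 with length-scaled counts and 0.246 among replicates 3 and 4, and Foxo4 was 0.065 among replicates 1 and 2. In paused culture, Irs1 was -0.005 among replicates 3 and 4 and Foxo1 was 0.017 among replicates 1 and 2. The replicate numbers did not pair the libraries throughout (same-number correlations from -0.226 to 0.417). In each comparison 1 or 2 of the 4 replicates were closest to their own number. KO over WT in paused culture, these were replicates 2 and 3, at 0.362 and 0.369, beside at most 0.098 between unlike numbers. With the replicate block, the members called were 8 and 9 for pausing in KO and WT cells, 6 for the difference of the responses, 6 in normal and 7 in paused culture, as without it, and Irs1 in normal culture was 0.004. When 1 library was left out, members called for the difference ranged from 2 to 6. The difference of the responses then ranged from -0.061 to 0.164 for Irs1, from -0.029 to 0.065 for Foxo1 and from -0.159 to 0.109 for Foxo3. KO over WT it ranged from -0.125 to 0.12 for Irs1 and from -0.061 to 0.006 for Foxo1 in normal culture, and from -0.005 to 0.115 and from -0.033 to 0.004 in paused culture. Irs1 rests on 27 to 297 counts a library and Pik3ip1 on 145 to 423, which limits their precision.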
